A study of Oryza sativa with 27 samples.

Results

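Transcript levels of 9 loci listed as catalases, superoxide dismutases and ascorbate peroxidases were examined in suspension cells of rice (Oryza sativa, cultivar Tsukinohikari). They are 9 of the 46102 loci in the deposited count table, were taken from a given list of identifiers by a rule that uses no measured value, and were all found. The list names the enzyme families for the set and not for each identifier, and neither the count table nor the rice gene table at hand (39387 genes, 0 of the 9 matched) pairs these identifiers with names. Each locus is therefore given by its identifier, with no family or role of its own, and the label could not be checked against the data.

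Superoxide dismutases turn superoxide into hydrogen peroxide and oxygen. Catalases break hydrogen peroxide down to water and oxygen, largely in peroxisomes, and ascorbate peroxidases reduce it with ascorbate, the entry step of the ascorbate-glutathione cycle. In plants these enzymes belong to small gene families whose products work in the cytosol, chloroplasts, mitochondria and peroxisomes, and they are widely followed as markers of oxidative stress.

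The cultures were 5 days old when dosed and fell into 9 groups of 3 biological replicates. They received metcamifen at 5 µM, cyprosulfamide at 5 µM or the carrier DMSO alone, and were sampled 30, 90 and 240 min later. Both compounds are herbicide safeners, applied with a herbicide to limit its injury to the crop. Both are methoxybenzoyl sulfonamides, and they differ at the ring position opposite the sulfonyl group, where metcamifen has a methylurea and cyprosulfamide a cyclopropyl amide. PolyA RNA was sequenced in 27 libraries with 7278921 to 26162571 counts under metcamifen, 5516373 to 43747251 under cyprosulfamide and 16716222 to 21620410 in DMSO. The labels do not say whether replicates came from separate flasks, so p-values measure the spread between these libraries. Levels are given as CPM, counts scaled to a common total after TMM normalization, and are not divided by transcript length, so that levels are not compared between loci.

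A call is a Benjamini-Hochberg adjusted p under 0.05 over 26465 loci in edgeR's quasi-likelihood test, two-sided. Of 81 tests, 9 loci in 9 comparisons of treatments at a matched time, 1 was called: LOC_Os06g51150 was higher under metcamifen than under cyprosulfamide at 240 min. Over all loci, 2.68% of the tests in these 9 comparisons were called. Of all 171 tests of the 9 loci, which add changes over time and changes of effect, 2 were called, and the second was the rise of the same locus under metcamifen between 90 and 240 min. Both calls use the same 3 metcamifen libraries at 240 min and are not separate findings. The share over all loci in the 19 comparisons was 2.18%, so that the number of calls at the 9 loci was near the background and is not a result about them. Together the 9 loci took 0.175% to 0.232% of the counts of a library. Summed over the 27 libraries, LOC_Os03g17690 gave 600788 of these counts, LOC_Os07g49400 201559 and LOC_Os06g51150 108559. LOC_Os02g02400 and LOC_Os03g03910 gave 208 and 196. LOC_Os03g17690 therefore weighs most in the share of the 9, but the share did not always follow it. From 90 to 240 min the mean share rose in each treatment, while the mean level of LOC_Os03g17690 fell. The locus went from 1186 to 1137 CPM under metcamifen, 1244 to 1223 CPM under cyprosulfamide and 1350 to 1317 CPM in DMSO. The share of the 9 averaged 0.208 ± 0.00927%, 0.198 ± 0.00338% and 0.210 ± 0.0111% under metcamifen at the 3 times. It averaged 0.197 ± 0.0197%, 0.213 ± 0.00872% and 0.220 ± 0.0105% under cyprosulfamide, and 0.210 ± 0.00882%, 0.224 ± 0.00404% and 0.226 ± 0.00737% in DMSO (SD, n = 3). RNA was taken from whole cultures, so that fewer cells using a locus and less RNA per cell cannot be told apart.

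**Figure D1:**
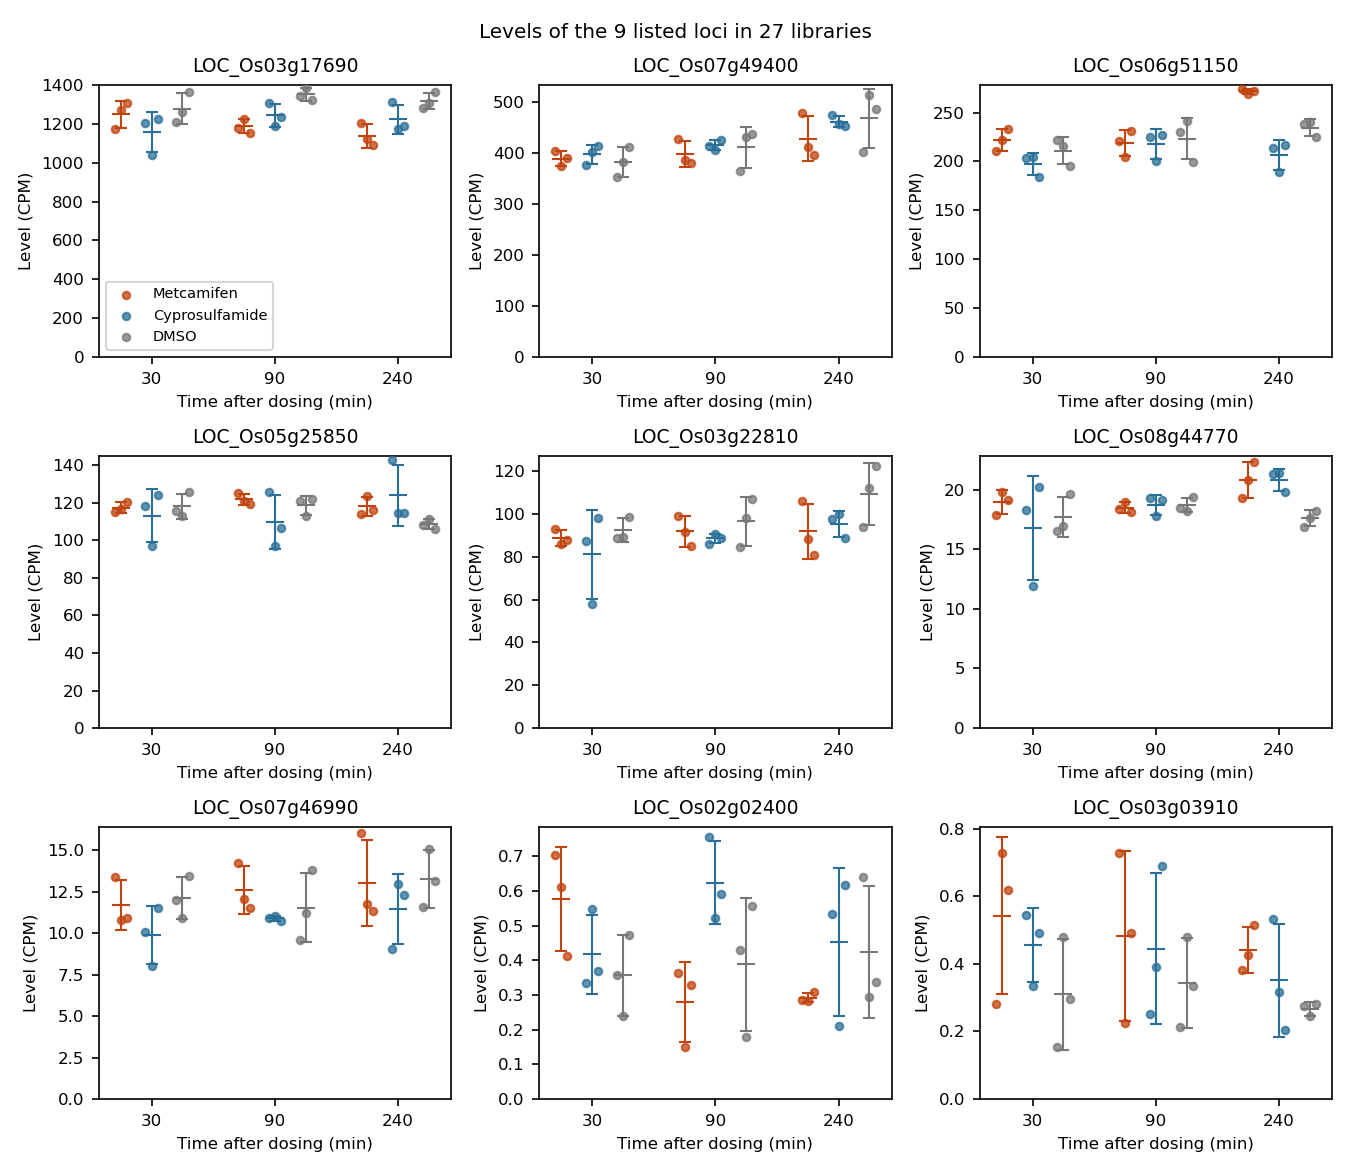
Level in CPM (y axis, from 0) against time after dosing (x axis) for each of the 9 loci, with metcamifen, cyprosulfamide and DMSO side by side at each time. Points are libraries, and bars are the mean ± SD of 3. LOC_Os06g51150 under metcamifen at 240 min, at 269 to 274 CPM, lies above all other libraries of that locus, while LOC_Os02g02400 and LOC_Os03g03910 reach at most 0.755 and 0.727 CPM.

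LOC_Os06g51150 was the one locus with called differences. At 240 min its level was 274, 269 and 272 CPM in the metcamifen libraries, 214, 189 and 217 CPM in the cyprosulfamide libraries and 238, 241 and 225 CPM in the DMSO libraries. The 3 treatments did not overlap at that time, with metcamifen highest and cyprosulfamide lowest. Metcamifen exceeded cyprosulfamide by 1.32-fold (95% interval 1.18 to 1.47, log2 difference 0.40, SE 0.08, adjusted p = 0.00259 in edgeR). Of all loci tested, 3.94% were called in this comparison and 2.47% were called higher. The difference was called in all 13 alternative settings, with log2 values from 0.34 to 0.44.

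Against DMSO neither safener's change at LOC_Os06g51150 was called at 240 min. The log2 fold change was 0.21 under metcamifen (SE 0.08, adjusted p = 0.14) and -0.18 under cyprosulfamide (SE 0.08, adjusted p = 0.783, both edgeR). Both values use the same 3 DMSO libraries. In a fit of group means, the difference between the safeners is the first value minus the second by construction. That their sizes add up to it is therefore no separate result. Neither value passed on its own, so that a change by either safener against the carrier was not shown.

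Over time, LOC_Os06g51150 stood at 222 ± 11.2, 219 ± 13.3 and 272 ± 2.36 CPM under metcamifen at 30, 90 and 240 min. It stood at 197 ± 11.6, 218 ± 15.1 and 207 ± 15.5 CPM under cyprosulfamide, and at 211 ± 13.7, 223 ± 21.3 and 235 ± 8.69 CPM in DMSO (SD, n = 3). In metcamifen cultures the level at 240 min was 1.24-fold that at 90 min (95% interval 1.11 to 1.39, log2 change 0.31, SE 0.08, adjusted p = 0.0122, edgeR). All 3 libraries at 240 min lay above the 221, 204 and 231 CPM of the 90 min libraries. Of all loci, 6.65% were called in this comparison and 2.13% were called higher. With libraries paired by replicate number the call was kept. The call ended without Metcamifen_90min replicate 1 (adjusted p = 0.056) or replicate 2 (adjusted p = 0.0876), and without replicate 1 of DMSO and metcamifen at all times (adjusted p = 0.0839). In DMSO the corresponding log2 change was 0.07 (SE 0.08, adjusted p = 0.883). The direct test of the difference between these changes gave 0.24 (SE 0.11, adjusted p = 0.418, edgeR), so that the rise was not shown to be particular to metcamifen.

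In the order of the 9 group means of LOC_Os06g51150, metcamifen at 240 min came first, and its libraries did not overlap with those of DMSO at 240 min, the next in order. Every other pair of neighbours overlapped, down to 197 CPM for cyprosulfamide at 30 min. For the other 8 loci, all neighbouring groups in the order of means overlapped. Neighbours have the nearest means, so that groups further apart could still be separate. At LOC_Os03g17690 metcamifen lay below DMSO without overlap at 90 and 240 min. How often neighbours overlapped over all loci was not counted. The highest group mean was 1.14 to 1.35 times the lowest at the 6 other loci above 5 CPM, and 1.38 times at LOC_Os06g51150.

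Metcamifen was compared with DMSO at each time to ask whether the safener changed these loci relative to the carrier. At 30 min edgeR called 0 of the 9 loci, where 1.35% of all loci were called, and at 90 min 0 of 9, where 5.94% were called. At 240 min it called 0 of 9, where 4.65% were called. Before adjustment, p was under 0.05 at 1, 1 and 2 of the 9 loci at the 3 times, next to 7.33%, 14.5% and 15% of all loci, and DESeq2 called 0, 0 and 1. The median log2 fold change of the 9 loci was 0.02, -0.03 and -0.01, next to -0.0037, -0.011 and -0.0069 over all loci tested. Without regard to sign, the median change of the 9 was 0.072, 0.073 and 0.212 log2 units, next to 0.113, 0.128 and 0.139 over all loci.

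LOC_Os03g17690 came nearest to a call against DMSO. At 240 min it had 1204, 1120 and 1088 CPM under metcamifen, against 1281, 1306 and 1364 CPM in DMSO, and the groups did not overlap. The log2 fold change was -0.21 (SE 0.07, adjusted p = 0.0938, edgeR). It was called by DESeq2 (adjusted p = 0.0394) and with 1 surrogate variable (adjusted p = 0.0492), but in none of the other 11 alternative settings. At 90 min it averaged 1186 ± 36.5 CPM under metcamifen and 1350 ± 31.4 CPM in DMSO (SD, n = 3), again with no overlap (log2 fold change -0.19, SE 0.07, adjusted p = 0.151). At 30 min the libraries overlapped, with 1249 ± 69 CPM under metcamifen and 1277 ± 78.8 CPM in DMSO.

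At 30 min the libraries of metcamifen and DMSO overlapped at each of the 9 loci, where 6.38% of all loci were higher and 5.35% lower without overlap. At 90 min 0 were higher and 1 lower without overlap, next to 12.2% and 9.62% of all loci. At 240 min 4 of the 9 were higher and 1 lower, next to 10.7% and 8.32%. Besides LOC_Os06g51150 and LOC_Os03g17690, those at 240 min were LOC_Os08g44770, LOC_Os05g25850 and LOC_Os03g03910. LOC_Os03g03910 had 8, 9 and 5 counts under metcamifen and 6, 5 and 5 in DMSO, so that its lack of overlap rests on few reads. LOC_Os08g44770 averaged 20.8 ± 1.52 CPM under metcamifen and 17.6 ± 0.669 CPM in DMSO (log2 fold change 0.24, adjusted p = 0.383). LOC_Os05g25850 averaged 118 ± 5.14 CPM under metcamifen and 109 ± 2.61 CPM in DMSO (log2 fold change 0.12, adjusted p = 0.617, both edgeR). Both loci also lay above the same 3 DMSO libraries under cyprosulfamide, at 20.8 ± 0.914 and 124 ± 16.3 CPM (log2 fold changes 0.24 and 0.19, adjusted p = 0.788 at each). The 2 comparisons share their DMSO libraries, which for LOC_Os05g25850 formed the lowest of the 9 group means.

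Cyprosulfamide against DMSO gave no call at any of the 9 loci. At 30, 90 and 240 min edgeR called 0 of 9 against DMSO, where 0.00378%, 0% and 0% of all loci were called, and DESeq2 called 0 of 9 at each time. Before adjustment, p was under 0.05 at 0, 0 and 1 of the 9 loci, next to 9.63%, 3.09% and 6.31% of all loci. Without overlap, 0, 0 and 2 of the 9 were higher than DMSO, next to 5.48%, 4.24% and 5.05%. In the other direction 0, 1 and 1 were lower, next to 4.61%, 4.09% and 4.77%. At LOC_Os03g17690 the level under cyprosulfamide was 1157 ± 101, 1244 ± 59.6 and 1223 ± 75.5 CPM at the 3 times, against 1277 ± 78.8, 1350 ± 31.4 and 1317 ± 42.5 CPM in DMSO (SD, n = 3). Its groups were apart at 90 min (log2 fold change -0.12, SE 0.07, adjusted p = 1.0) and overlapped at 30 and 240 min.

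Between the safeners, edgeR called 0, 0 and 1 of the 9 loci at 30, 90 and 240 min, where 1.42%, 6.79% and 3.94% of all loci were called, and DESeq2 called 0, 0 and 1. Before adjustment, p was under 0.05 at 1 of the 9 loci at each time, next to 9.48%, 17.6% and 13.8% of all loci. Without overlap, 1 of the 9 was higher under metcamifen at each time, next to 5.57%, 14.3% and 11.3%, and 0, 1 and 0 were lower, next to 5.61%, 12.6% and 10.4%. The higher locus was LOC_Os06g51150 at 30 min, by 0.17 on the log2 scale (adjusted p = 0.496), and again at 240 min. At 90 min it was LOC_Os07g46990, by 0.20 on the log2 scale (adjusted p = 0.606). LOC_Os07g49400 averaged 389 ± 14.3, 397 ± 25.5 and 428 ± 44 CPM under metcamifen and 397 ± 18.7, 416 ± 9.81 and 461 ± 11.1 CPM under cyprosulfamide, with 382 ± 29.3, 411 ± 40.1 and 468 ± 58 CPM in DMSO (SD, n = 3). Its libraries overlapped between treatments at every time, and its means were higher at each later time in each treatment. No single step between successive times was called in any treatment. The whole rise, 240 against 30 min, was not tested.

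The other loci above 5 CPM had no called difference. LOC_Os03g22810 averaged 89 ± 3.67, 91.9 ± 7.12 and 91.9 ± 12.9 CPM under metcamifen at the 3 times, 81.2 ± 20.8, 88.6 ± 2.26 and 95.6 ± 6.08 CPM under cyprosulfamide, and 92.4 ± 5.59, 96.6 ± 11.4 and 109.6 ± 14.5 CPM in DMSO (SD, n = 3). Its largest difference from DMSO was at 240 min under metcamifen (log2 fold change -0.25, SE 0.14, adjusted p = 0.42), where the libraries overlapped. LOC_Os07g46990 averaged 11.7 ± 1.48, 12.6 ± 1.45 and 13 ± 2.59 CPM under metcamifen, 9.88 ± 1.76, 10.9 ± 0.157 and 11.4 ± 2.1 CPM under cyprosulfamide, and 12.1 ± 1.28, 11.5 ± 2.1 and 13.3 ± 1.74 CPM in DMSO. LOC_Os08g44770 averaged 19 ± 0.979 and 18.5 ± 0.45 CPM under metcamifen at 30 and 90 min, 16.8 ± 4.33 and 18.7 ± 0.826 CPM under cyprosulfamide, and 17.7 ± 1.69 and 18.7 ± 0.59 CPM in DMSO. LOC_Os05g25850 averaged 117 ± 2.9 and 122 ± 3 CPM under metcamifen at these times, 113 ± 14.1 and 109.7 ± 14.5 CPM under cyprosulfamide, and 118 ± 6.84 and 119 ± 5.05 CPM in DMSO. At both times the libraries of these last 2 loci overlapped between each safener and DMSO.

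**Figure D2:**
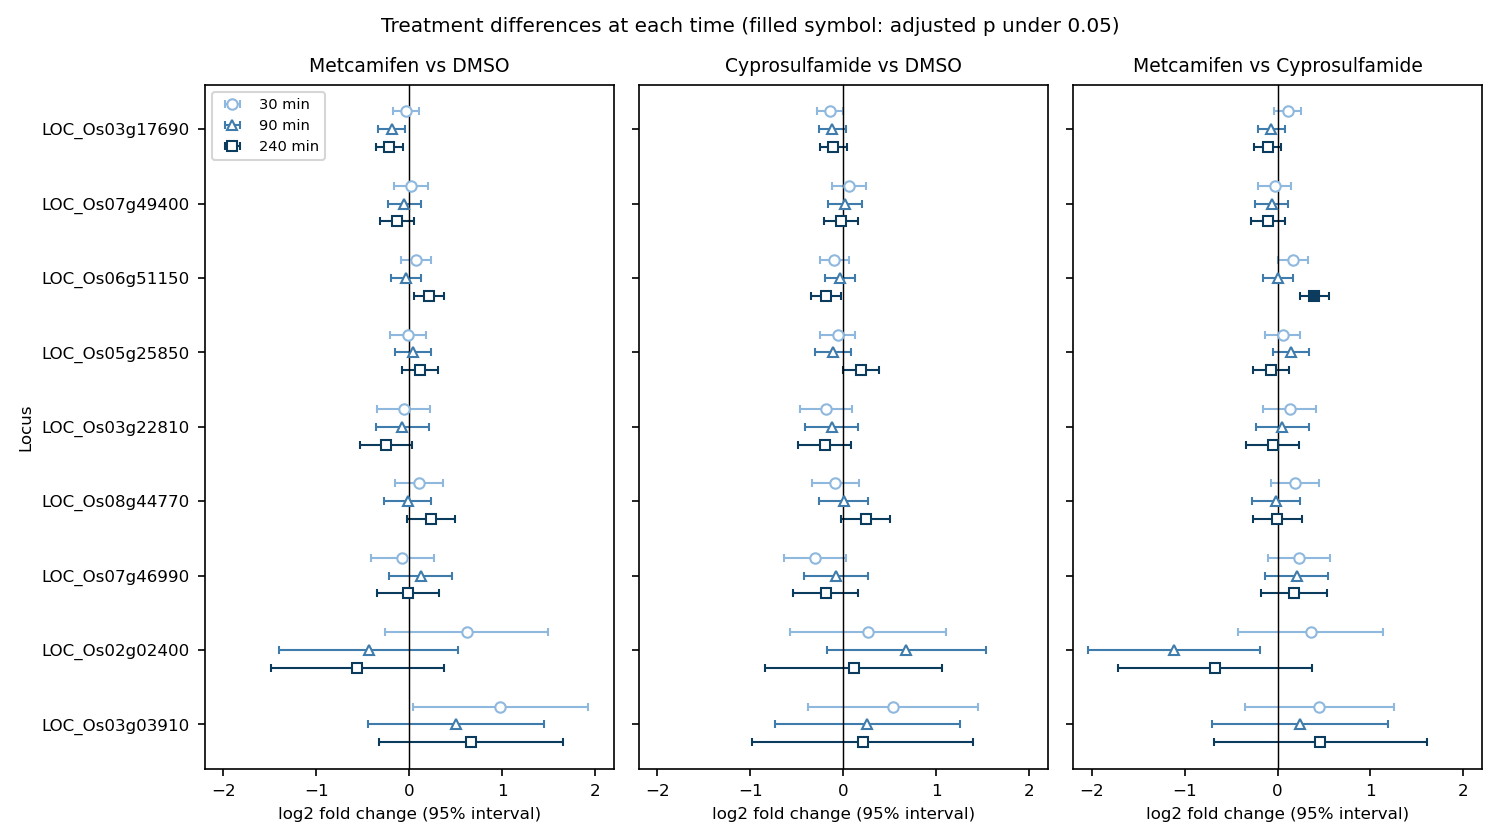
Log2 fold change (x axis) of each of the 9 loci (y axis) for metcamifen against DMSO, cyprosulfamide against DMSO and metcamifen against cyprosulfamide, with 95% intervals, at 30, 90 and 240 min. A filled symbol marks the one adjusted p under 0.05, LOC_Os06g51150 between the safeners at 240 min (0.40), and the intervals of the 2 loci under 5 CPM are several times wider than those of the others.

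The precision of these comparisons depended on the level of the locus. For the 7 loci with a mean above 5 CPM, standard errors of the 63 treatment differences ran from 0.07 to 0.17 log2 units. All 63 intervals at 95% lay between 0.644-fold and 1.48-fold. For metcamifen against DMSO they lay between 0.751- and 1.29-fold at 30 min, 0.781- and 1.38-fold at 90 min, and 0.691- and 1.41-fold at 240 min. A 1.5-fold rise of any of these 7 loci thus lay outside its interval.

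LOC_Os02g02400 and LOC_Os03g03910 were near the limit of detection, with 2 to 23 and 2 to 19 counts per library. Pooled over 3 libraries, LOC_Os02g02400 had 29, 15 and 15 counts under metcamifen at the 3 times, 40, 29 and 14 under cyprosulfamide, and 19, 21 and 26 in DMSO. The corresponding exact Poisson intervals at 95%, which cover counting error only, ran from 0.162 to 0.791 CPM under metcamifen, 0.257 to 0.919 CPM under cyprosulfamide and 0.215 to 0.633 CPM in DMSO. Its mean level at 90 min was 0.28 ± 0.115 CPM in metcamifen libraries and 0.623 ± 0.12 CPM in cyprosulfamide libraries, without overlap (log2 difference -1.12, SE 0.45, adjusted p = 0.146, edgeR). LOC_Os03g03910 had 33, 25 and 22 pooled counts under metcamifen, 39, 18 and 9 under cyprosulfamide, and 16, 18 and 16 in DMSO. Its largest log2 fold change was 0.98 for metcamifen against DMSO at 30 min (SE 0.46, adjusted p = 0.622). This locus passed the low-count filter only through safener libraries, so that its higher level there is given as a description. Over the treatment comparisons, intervals at these 2 loci reached from -2.04 to 1.93 log2 units, with SE from 0.38 to 0.58. The difference of -1.12 at LOC_Os02g02400 was not called, though its own interval, -2.04 to -0.19, left out 0. The power to detect a 2-fold difference was not computed, and the SE also hold the spread between libraries. The lack of calls therefore does not show that these 2 loci were unchanged.

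Over time, edgeR called 0 of the 9 loci between 30 and 90 min under metcamifen, cyprosulfamide and DMSO, where 5.41%, 0.193% and 0.242% of all loci were called. Between 90 and 240 min it called 1, 0 and 0, where 6.65%, 0.54% and 0.71% were called. Before adjustment, p was under 0.05 at 1, 0 and 0 loci in the first interval, next to 15.2%, 10.1% and 5.65% of all loci, and at 1, 0 and 1 in the second, next to 18.6%, 11.6% and 9.12%. DESeq2 gave the same counts of calls as edgeR in all 6 comparisons. The effect of metcamifen against DMSO changed at 0 of 9 loci from 30 to 90 min and 0 of 9 from 90 to 240 min, where 1.69% and 1.93% of all loci were called. For cyprosulfamide both counts were also 0, next to 0% of all loci at both steps. Before adjustment, p was under 0.05 at 0 and 1 loci for metcamifen, next to 9.51% and 10.3% of all loci, and at 0 and 1 for cyprosulfamide, next to 2.47% and 3.52%. DESeq2 called 0 loci in each of the 4.

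Over the 27 libraries the SD of log2 CPM was 0.10 for LOC_Os03g17690, smaller than at all but 8.38% of the 26465 loci. It was 0.12 for LOC_Os05g25850, 0.13 for LOC_Os07g49400, 0.15 for LOC_Os06g51150, 0.17 for LOC_Os08g44770, 0.19 for LOC_Os03g22810 and 0.22 for LOC_Os07g46990, which is more than at 49.1% of all loci. At the 2 loci under 5 CPM it was 0.46 each, more than at 84% of all loci for LOC_Os02g02400 and 83.9% for LOC_Os03g03910. The median was 0.17 over the 9 loci, 0.22 over all loci and 0.17 over the 17656 loci with a mean of at least 5 CPM. Among these 17656 loci, the SD of LOC_Os07g46990 was more than at 71.2% and that of LOC_Os03g22810 more than at 62.1%. The lowest rank of the 7 was that of LOC_Os03g17690, more than at 12.6%.

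One library stood apart at several loci. Cyprosulfamide_30min replicate 2, the deepest library, was the lowest of all 27 at 4 of the 7 loci above 5 CPM. It had 58 CPM of LOC_Os03g22810, where the other cyprosulfamide libraries at 30 min had 87.6 and 98.1 CPM. For LOC_Os08g44770 it had 11.9 CPM beside 18.3 and 20.2 CPM, and for LOC_Os07g46990 8.03 CPM beside 10.1 and 11.5 CPM. For LOC_Os03g17690 it had 1041 CPM beside 1204 and 1227 CPM. Cyprosulfamide against DMSO at 30 min gave log2 fold changes of -0.19, -0.09, -0.30 and -0.14 at these 4 loci with the library. Without it they were 0.01, 0.12, -0.16 and -0.07, and none was called. At how many of all loci this library was the lowest was not counted. The part of its depth, 43747251 counts, in these values was not tested.

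**Figure D3:**
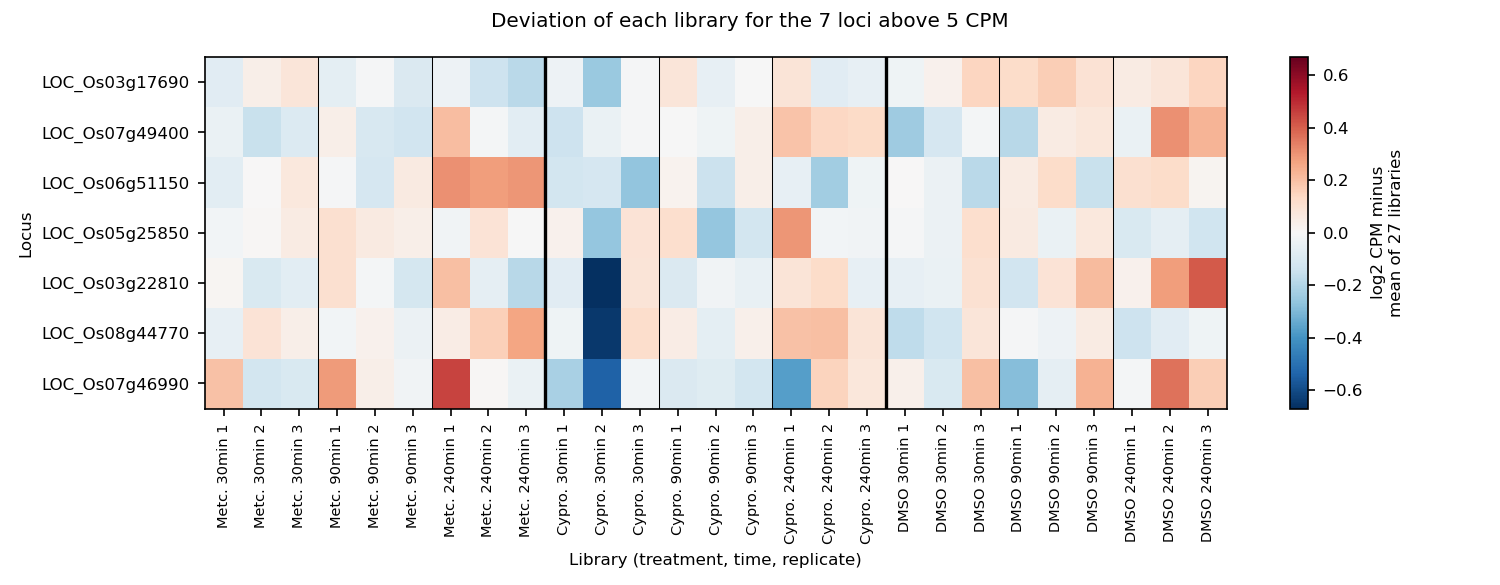
Deviation of log2 CPM in each of 27 libraries (x axis, by treatment, time and replicate) from the mean of all libraries, for the 7 loci above 5 CPM (y axis). Red is above and blue below the mean. Cyprosulfamide_30min replicate 2 is the darkest blue column, LOC_Os06g51150 is red in the 3 metcamifen libraries at 240 min, and replicate 1 of metcamifen and of DMSO lie on opposite sides at LOC_Os07g46990, LOC_Os07g49400 and LOC_Os03g22810 at 90 min.

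At 3 of the 7 loci above 5 CPM, replicate 1 of metcamifen and of DMSO lay on opposite sides of the other replicates at most times. Over 15516 loci, replicate 1 deviations of metcamifen and DMSO from their group means correlated at -0.44, -0.77 and -0.84 at the 3 times. Opposite deviations of these libraries were thus general and not a trait of the 3 loci. At LOC_Os07g49400, replicate 1 was the highest of 3 under metcamifen at all 3 times, with 403, 427 and 478 CPM. In DMSO it was the lowest of 3 at all 3 times, with 352, 365 and 403 CPM. The same held for LOC_Os03g22810, with 93, 99.2 and 106 CPM in replicate 1 under metcamifen and 88.9, 84.4 and 93.9 CPM in replicate 1 of DMSO. At LOC_Os07g46990 replicate 1 was highest under metcamifen at all 3 times, at 13.4, 14.2 and 16 CPM, and lowest in DMSO at 2 of 3 times. The other 4 loci did not show this. At LOC_Os08g44770 replicate 1 was lowest at 2 of 3 times in both treatments, and at LOC_Os06g51150, LOC_Os05g25850 and LOC_Os03g17690 it was highest under metcamifen at 1 of 3 times. Without replicate 1 of both treatments at all times, LOC_Os07g49400 became the single called locus for metcamifen against DMSO at 240 min (log2 fold change -0.31, adjusted p = 0.00704, edgeR). With all libraries it was -0.13 (adjusted p = 0.564), so its call rested on which libraries were used.

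The loci that varied most together were LOC_Os03g22810 and LOC_Os07g46990, with a Pearson correlation of log2 CPM of 0.74 (Spearman 0.71) over 27 libraries. LOC_Os08g44770 and LOC_Os05g25850 had 0.61 (0.56), LOC_Os03g22810 and LOC_Os03g17690 0.60 (0.38), and LOC_Os03g22810 and LOC_Os07g49400 0.60 (0.73). LOC_Os06g51150 had at most 0.16 with any other of the 8. All pairs ranged from -0.24 to 0.74. They share libraries and scaling and are given as a description. Among all 26465 loci, the locus most like LOC_Os06g51150 was LOC_Os02g04840 (Pearson 0.90 over 27 libraries). For LOC_Os03g22810 it was LOC_Os06g17870 (0.91), for LOC_Os07g46990 LOC_Os03g10080 (0.91), and for LOC_Os07g49400 LOC_Os03g61670 (0.91). For LOC_Os08g44770 it was LOC_Os05g50830 (0.86), for LOC_Os05g25850 LOC_Os06g05670 (0.86), and for LOC_Os03g17690 LOC_Os03g48080 (0.85). None of these most alike loci was one of the 9. Each value is the highest Pearson correlation among all loci, and 1 library can weigh much in it. Cyprosulfamide_30min replicate 2 deviated from the mean by -0.64 log2 units at LOC_Os08g44770 and -0.67 at LOC_Os03g22810. Between these 2 loci the Pearson correlation was 0.50 and the Spearman 0.03. The values without that library were not computed. At the 2 sparse loci the highest correlations were 0.67 and 0.62, which at 2 to 23 counts a library carry little.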

How the data were processed

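PolyA RNA of 27 libraries was analysed from 1 table of read counts per locus, deposited by the authors as whole numbers that were not normalized, as checked from the values. GSNAP and edgeR are named in the submitters' processing notes, with no version. How strand and multiply matching reads were handled, and which build and annotation were used, is not given in those notes. Counts of a locus with near-identical copies would be uncertain, and whether any of the 9 has such copies was not checked. Libraries were grouped by the treatment, time and replicate number in the labels.

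From the counts, loci were filtered with filterByExpr (minimum count 10, minimum total 15), which all 9 passed, leaving 26465. The filter asked for about 0.554 CPM in 3 libraries. LOC_Os03g03910 reached at most 0.481 CPM in DMSO, 0.727 CPM under metcamifen and 0.689 CPM under cyprosulfamide. It thus passed only through safener libraries, and its passing is not independent of its level under them. TMM scaling and a quasi-likelihood fit of 9 group means (edgeR 4.0.16 in R 4.3.3, 18 residual degrees of freedom) gave 19 contrasts, each adjusted over all loci. Standard errors are those of the fitted model, scaled by its moderated dispersion. Log2 CPM used a prior count of 2. Every locus of the list is described, with full statistics for called differences. The rule for the 9 loci uses no measured value, but the list was proposed, and the tests were chosen, with earlier results of these data known. Alternatives were DESeq2 1.42.0, RLE size factors, no filter, only the compared libraries, each library left out, a replicate block, 1 surrogate variable (sva 3.50.0) and replicate 1 of DMSO and metcamifen left out.

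Same-numbered libraries of different times deviated together in DMSO (correlations of deviations from group means 0.35 to 0.82) and metcamifen (0.25 to 0.74), so the numbers were taken to pair times within these treatments. Under cyprosulfamide they ran from -0.08 to 0.55 over times. Between treatments at a time they ran from -0.84 to -0.29 for metcamifen and DMSO, 0.04 to 0.59 for cyprosulfamide and DMSO and -0.54 to 0.10 for metcamifen and cyprosulfamide, and these were not taken as pairs. Over times, the library of the same number correlated best in 9 of 9 pairs in DMSO. This held in 6 of 9 pairs under metcamifen and 7 of 9 under cyprosulfamide. By this count the pairing was no clearer under metcamifen than under cyprosulfamide. The main fit took all libraries as independent, and pairing entered only in the replicate block.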

Additional observations from a re-analysis of the deposited data

How the results depend on the processing

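The count of called loci was the same as reported in 263 of 269 alternative fits over the 19 comparisons, and in 0 alternatives did a called fold change turn its sign. For metcamifen against DMSO at 240 min the count was 1 in place of 0 with DESeq2, with 1 surrogate variable (both LOC_Os03g17690, lower) and without replicate 1 of DMSO and metcamifen (LOC_Os07g49400, lower). For metcamifen at 240 against 90 min it was 0 in place of 1 without that replicate 1, and ran from 0 to 1 when single libraries were left out. The cause was not tested. With the replicate block, in which libraries are paired by number, LOC_Os06g51150 kept its calls at 240 min, for metcamifen against cyprosulfamide (log2 difference 0.40, adjusted p = 0.0144) and for metcamifen at 240 against 90 min (log2 change 0.32, adjusted p = 0.00113). The block changed no other call. For metcamifen against cyprosulfamide it pairs libraries across treatments, where deviations correlated at -0.54 to 0.10 and were not taken as pairs. The block is therefore a weak check of the call between the safeners. Low counts limit the 2 loci under 5 CPM. At the other 7, exact Poisson intervals, which cover counting error only, can be set beside the SD between libraries. For LOC_Os03g17690 under metcamifen at 240 min the interval was 1139 to 1157 CPM and the SD 59.8 CPM. For LOC_Os07g46990 under cyprosulfamide at 90 min the interval was 9.98 to 11.9 CPM and the SD 0.157 CPM. The part of each in the calls was not tested.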
